A study of Arabidopsis thaliana with 30 samples.

Results

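The 37 loci described here encode mitotic proteins of Arabidopsis thaliana: 5 A-type cyclins, 9 B-type cyclins, 5 CDKB kinases and CKS subunits, 3 transcription factors, 5 Aurora kinases and spindle factors, 4 checkpoint and CDC20 genes, and 6 cytokinesis genes. They were chosen by locus code for their known roles, such as AT5G06150 for CYCB1;2, AT1G63100 for SCL28, AT1G20610 for CYCB2;3, AT1G20930 for CDKB2;2 and AT3G19050 for POK2, and all 37 were present among the 32678, 34218 and 33602 genes of the 3 sets of files. Their transcripts were followed in roots of seedlings aged 5 days. There were 10 groups, each of 3 libraries, or 30 in all. In the induction set, lines with pWOL(XVE)::ZAT14-like-TURQ or pWOL(XVE)::ZAT14-TURQ in the Col-0 background were given DMSO or 5 µM estradiol for 10 h or 14 h, and whole root meristems were dissected and pooled. The DMSO groups carry no time, and no estradiol-treated Col-0 was among the groups. XVE is an estradiol-activated transcription factor, and the WOL promoter confines it mainly to the root vasculature, so induced cells are part of the sampled tissue. The mutant set compared meristems of the pear sextuple mutant, which is affected in PEAR-type Dof factors, with Col-0, neither of them induced. In the sorted set, protoplasts carrying pCALS7::H2B-RFP together with pNAC086(XVE)::PLT2-3YFP were collected after 10 µM estradiol for 6 h as cells positive for RFP and YFP, or after DMSO as cells positive for RFP. Both promoters of that line are active in sieve elements.

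In plants, entry into mitosis is driven by cyclin-dependent kinases of the CDKB and CDKA classes bound to A- and B-type cyclins. Many of these genes are transcribed in a pulse at the G2/M transition, through MYB3R factors that bind mitosis-specific activator (MSA) elements, whose core is AACGG, and through the GRAS factor SCL28. In the root meristem such transcripts are found in the dividing cells, and they are lost as cells leave the cell cycle and elongate. Once chromosomes are attached, the anaphase-promoting complex with CDC20 destroys the cyclins, and a microtubule array called the phragmoplast then guides the new cell wall.

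The MSA core was frequent ahead of these genes. In the 250 bases before the annotated transcript start (RefSeq, TAIR10.1), AACGG on either strand was present in 20 of 37 members, or 54.1%, against 20.6% of 27443 promoters. The longer form CNAACGG, which contains AACGG, was present in 13 members, or 35.1%, against 4.5% of all promoters. At least 3 copies of AACGG were found in 7 members, or 18.9%, against 0.736% of all promoters. The promoters of 5 members are shown, with AACGG or its reverse complement CCGTT in capitals: 3 that hold several copies, from genes whose transcripts fell after ZAT14-like induction, and 2 without a copy, from genes that did not pass the test there. These 5 do not stand for all members: 17 of 20 with a copy and 11 of 17 without one fell at 14 h. All run from 5′ to 3′ on the gene's own strand and end at the base before the start. They lie at chr5:1861704-1861953, minus strand (CYCB1;2), chr1:23402177-23402426, minus strand (SCL28), chr1:7137829-7138078, minus strand (CYCB2;3), chr3:20059421-20059670, plus strand (CDKB1;1) and chr4:15789883-15790132, plus strand (MYB3R1).
CYCB1;2: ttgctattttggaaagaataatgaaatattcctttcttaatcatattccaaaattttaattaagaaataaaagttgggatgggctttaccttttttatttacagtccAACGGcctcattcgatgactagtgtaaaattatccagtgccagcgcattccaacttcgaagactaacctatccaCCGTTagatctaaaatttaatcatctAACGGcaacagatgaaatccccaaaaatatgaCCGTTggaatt
SCL28: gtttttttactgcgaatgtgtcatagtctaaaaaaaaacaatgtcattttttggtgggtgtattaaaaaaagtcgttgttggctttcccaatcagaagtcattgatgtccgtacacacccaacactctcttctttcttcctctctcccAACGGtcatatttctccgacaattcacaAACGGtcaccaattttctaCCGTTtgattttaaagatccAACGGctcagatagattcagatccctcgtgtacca
CYCB2;3: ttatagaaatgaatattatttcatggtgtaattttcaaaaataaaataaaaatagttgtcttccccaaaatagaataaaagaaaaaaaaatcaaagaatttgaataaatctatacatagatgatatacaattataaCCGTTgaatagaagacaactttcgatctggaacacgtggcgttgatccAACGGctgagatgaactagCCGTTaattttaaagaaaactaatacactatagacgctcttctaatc
CDKB1;1: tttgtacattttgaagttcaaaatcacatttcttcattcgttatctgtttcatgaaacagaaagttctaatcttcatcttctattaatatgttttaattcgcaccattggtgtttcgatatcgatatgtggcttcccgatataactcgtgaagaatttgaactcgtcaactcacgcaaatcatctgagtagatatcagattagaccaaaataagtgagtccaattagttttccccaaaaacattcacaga
MYB3R1: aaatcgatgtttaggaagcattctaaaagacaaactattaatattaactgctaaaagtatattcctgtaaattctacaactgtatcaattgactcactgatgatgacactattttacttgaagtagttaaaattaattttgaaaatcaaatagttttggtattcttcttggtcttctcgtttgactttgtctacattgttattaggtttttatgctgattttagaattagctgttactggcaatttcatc
CYCB1;2 and SCL28 hold 4 copies each and CYCB2;3 holds 3. The copy nearest to the start lies 7 bases before it in CYCB1;2, 31 in SCL28 and 43 in CYCB2;3.

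The induced genes moved with their labels. In its own line, ZAT14-like had a mean of 5.98 ± 0.572 FPKM in DMSO libraries, 54.9 ± 5.97 after 10 h and 71.4 ± 10.6 after 14 h, and ZAT14 in its own line reached 68.2 ± 3.89 FPKM at 14 h (SD, n = 3 each). PLT2 averaged 31580 ± 20900 CPM in estradiol libraries and 8.22 ± 2.18 CPM in DMSO libraries of the sorted set. In the mutant set PEAR1, PEAR2, DOF6 and OBP2 were lower, and TMO6 and HCA2 higher, in the libraries labelled pear sextuple than in Col-0, and the labels do not describe the alleles. FPKM is a count per kilobase of gene scaled to library size, and CPM is a count scaled to library size, here with TMM factors. Total counts of the sorted libraries ran from 31426740 to 44837397. The depth of the FPKM libraries, estimated from the steps between low values, was 17.8 to 25.9 M reads in the mutant set and 18.1 to 26.7 M reads in the induction set. Nothing in the labels states that the 3 libraries of a group were grown separately, and the p-values therefore rest on a spread that may be technical.

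In whole meristems every member was detected in every library. On the FPKM scale, which is per length, CKS2, a small subunit that docks on cyclin-dependent kinases, was the highest member in all 8 meristem groups, at 67.2 to 181 FPKM on average. The lowest members in Col-0 were CYCA2;1 and CYCA2;2, A-type cyclins, at 2.63 ± 0.813 and 3.91 FPKM on average. Summed over the 37 members, the ZAT14-like line had 716 ± 53.6 FPKM in DMSO libraries, 746 ± 58.5 after 10 h and 514 ± 51.6 after 14 h (SD, n = 3 each). In the ZAT14 line the same sum was 756 ± 50.9, 774 ± 63.2 and 621 ± 22.6 FPKM. In both lines the 14 h libraries lay below all DMSO and all 10 h libraries of that line, and DMSO and 10 h libraries overlapped.

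Most mitotic transcripts fell after 14 h of ZAT14-like induction. Of 37 members, 28 were lower and 0 higher than with DMSO at a Benjamini-Hochberg adjusted p under 0.05 in limma, against 4.49% of 17157 genes tested that were lower and 7.89% that were higher. The members' median log2 fold change was -0.54, while that of all genes was 0.00. The 9 B-type cyclins, the 6 cytokinesis genes and the 4 checkpoint and CDC20 genes were all among those that fell, with 3 of 5 A-type cyclins, 3 of 5 CDKB and CKS genes, 2 of 3 transcription factors and 1 of 5 Aurora and spindle genes. Every 14 h library lay below every DMSO library for 32 members, against 18.8% of all genes, and above for 1, against 19.8%. The count of 28 was 17 without the 3 libraries numbered 2, left out after the data were seen. All fold changes from FPKM are on the scale of log2(FPKM + 1), which understates the change of low genes. Whole meristems were sequenced, so fewer dividing cells and less mitotic RNA per cell cannot be told apart.

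**Figure D1:**
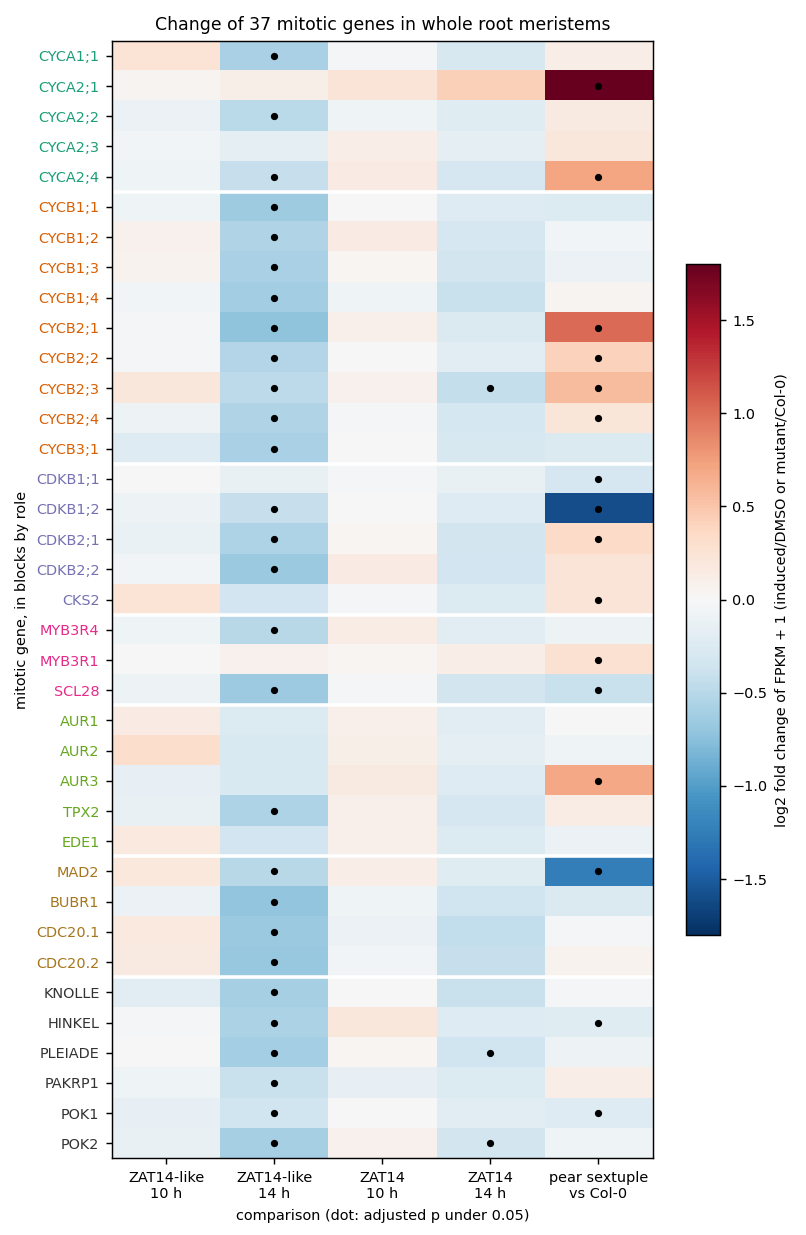
Log2 fold change of FPKM + 1 for each of the 37 mitotic genes (rows, in blocks by role, coloured by role) in 5 comparisons of whole root meristems (columns). Blue is lower and red higher in the induced or mutant group, and a dot marks an adjusted p under 0.05. The ZAT14-like 14 h column carries 28 dots, all on blue cells, while both 10 h columns carry 0.

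All 6 cytokinesis genes, which serve the phragmoplast and the division plane, fell. POK2, a kinesin that marks the division plane, had 5.32, 4.80 and 4.599 FPKM at 14 h, against 7.87, 8.61 and 7.34 FPKM with DMSO (log2 fold change -0.60, SE 0.079, limma adjusted p = 7.63e-05). PLEIADE, the microtubule bundler MAP65-3 of the phragmoplast midzone, had 8.11, 7.41 and 7.43 FPKM at 14 h, against 12.5, 13.6 and 10.8 FPKM with DMSO (-0.62, SE 0.096, adjusted p = 0.000406). In both genes every 14 h library lay below every DMSO library. The other 4, KNOLLE (the syntaxin of cytokinesis), HINKEL (a kinesin that activates a MAP kinase cascade), PAKRP1 (a kinesin-12) and POK1, had log2 fold changes between -0.59 and -0.36.

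Among the regulators, SCL28, the GRAS factor of the G2/M programme, had 14.4, 11.8 and 10.8 FPKM at 14 h, against 19.2, 21.6 and 18.8 FPKM with DMSO (log2 fold change -0.65, SE 0.093, limma adjusted p = 0.000181). MYB3R4, an activator of G2/M genes, fell by 0.50 on the log2 scale (adjusted p = 0.00762). MYB3R1, which can activate or repress G2/M genes, had 26.2, 26.8 and 25.3 FPKM at 14 h, against 24.8, 24.0 and 25.0 FPKM with DMSO (log2 fold change 0.08, SE 0.058, adjusted p = 0.382). Its 3 values at 14 h lay above those with DMSO, yet the difference did not pass the test. MYB3R1 and CYCA2;1 were the 2 members whose estimates lay above 0.

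Of the 4 CDKB kinases, 3 fell. CDKB2;2, a kinase made around G2 and M, had 13.2, 11.5 and 10.8 FPKM at 14 h, against 19.9, 22.0 and 16.7 FPKM with DMSO (log2 fold change -0.67, SE 0.107, limma adjusted p = 0.000507). CDKB2;1 had 22.2, 19.3 and 22.5 FPKM at 14 h, against 32.9, 34.1 and 28.3 FPKM with DMSO (-0.55, SE 0.093, adjusted p = 0.000835). Both CDKB2 genes were lower in every 14 h library. CDKB1;2 fell by 0.41 on the log2 scale (adjusted p = 0.0166), whereas CDKB1;1 had 38.0, 35.0 and 32.7 FPKM at 14 h and 40.7, 39.3 and 36.2 FPKM with DMSO (-0.13, SE 0.077, adjusted p = 0.27), with overlapping groups. The CDKB1 genes are known to be active over a longer stretch of the cycle than the CDKB2 genes. Whether the 2 classes differed in response was not tested.

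Of the cyclins, CYCB2;1 had 3.86, 3.37 and 3.86 FPKM at 14 h, against 6.96, 7.50 and 5.96 FPKM with DMSO (log2 fold change -0.73, SE 0.129, limma adjusted p = 0.00124). CYCB3;1 had 7.89, 5.91 and 5.89 FPKM at 14 h, against 9.87, 10.7 and 10.2 FPKM with DMSO (-0.58, SE 0.093, adjusted p = 0.000521). The 9 B-type cyclins ranged from -0.73 to -0.48. Of the A-type cyclins, CYCA1;1, CYCA2;2 and CYCA2;4 fell, CYCA2;3 had a log2 fold change of -0.18 (adjusted p = 0.153), and CYCA2;1 had 3.23, 2.48 and 2.89 FPKM at 14 h and 3.13, 1.88 and 2.85 FPKM with DMSO (0.11, SE 0.153, adjusted p = 0.693).

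BUBR1, a spindle checkpoint protein that holds back CDC20, had 7.96, 5.34 and 6.91 FPKM at 14 h, against 12.4, 11.2 and 10.9 FPKM with DMSO (log2 fold change -0.71, SE 0.117, limma adjusted p = 0.000742). MAD2, its partner in the checkpoint, fell by 0.50 on the log2 scale (adjusted p = 0.00757). CDC20.1 and CDC20.2 fell by 0.67 and 0.68 (adjusted p = 0.0075 and 0.0167), but 33.2% and 36.3% of their exon sequences of 50 bases occur elsewhere in the genome and the pair lies side by side on chromosome 4, so the split of reads between them is uncertain. The same holds to a smaller degree for CYCB2;3, with 17.0%, and CYCB1;2, with 11.3%. TPX2, a spindle assembly factor that activates Aurora kinase in animals, fell by 0.55 (adjusted p = 0.00241), while AUR1, AUR2, AUR3 and the microtubule protein EDE1 had log2 fold changes of -0.35 to -0.25 with adjusted p of 0.0513 to 0.104.

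**Figure D2:**
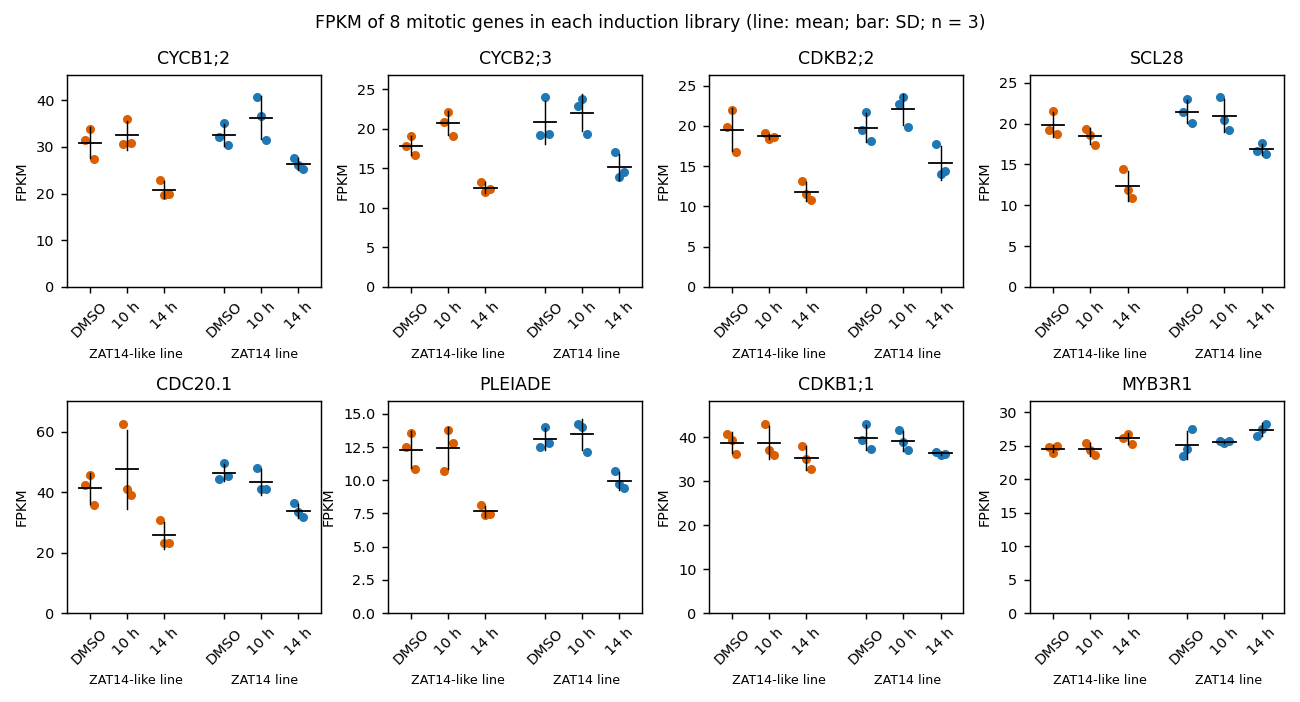
FPKM of 8 mitotic genes in each induction library (points, orange for the ZAT14-like and blue for the ZAT14 line) with DMSO and after 10 h and 14 h of estradiol. Lines are means and bars SD of 3 libraries. CYCB1;2, CYCB2;3, CDKB2;2, SCL28, CDC20.1 and PLEIADE have their lowest mean at 14 h in both lines, while CDKB1;1 and MYB3R1 did not pass the test.

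At 10 h no member passed the test. After 10 h of ZAT14-like induction 0 of 37 members passed limma, against 13.8% of all genes tested. An unadjusted p under 0.05 was found for 31.8% of all genes and for 2 members. These were AUR2, an Aurora kinase, with a log2 fold change of 0.32 (adjusted p = 0.059), and CYCB3;1, with -0.23 (adjusted p = 0.105). AUR2 passed the test at 0.39 without 10 h replicate 4 and at 0.38 without the libraries numbered 2 (adjusted p = 0.0326 and 0.0496). One 10 h library of this line, replicate 1, stood above the others for CKS2, with 139 FPKM beside 91.3 and 82.6, and for CDC20.1, with 62.7 FPKM beside 41.0 and 39.2. The same library lay below the others for POK1, with 5.175 FPKM beside 7.448 and 7.284, and for CYCA2;4, with 16.15 FPKM beside 22.08 and 21.2.

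Set against 10 h, the 14 h libraries of the ZAT14-like line had 29 members lower and 0 higher in limma, against 4.93% of all genes lower and 3.72% higher. These and the comparison with DMSO share the 14 h libraries, and 25 members were lower in both. CYCB2;3 had 13.3, 12.0 and 12.4 FPKM at 14 h, against 20.9, 22.1 and 19.1 FPKM at 10 h (log2 fold change -0.68, SE 0.0998, adjusted p = 0.000789). CYCA1;1, the A1-type cyclin of mitosis, had 7.23, 5.89 and 7.11 FPKM at 14 h, against 15.4, 12.3 and 10.7 FPKM at 10 h (-0.83, SE 0.142, adjusted p = 0.00231). In both genes the groups did not overlap. MAD2 had 35.0, 26.8 and 30.4 FPKM at 14 h, against 60.4, 46.1 and 45.1 FPKM at 10 h (-0.69, SE 0.113, adjusted p = 0.00163). CYCB1;2, PLEIADE, SCL28, CDKB2;2 and POK2 fell by 0.62, 0.63, 0.55, 0.62 and 0.46 on the log2 scale (adjusted p = 0.00157, 0.000951, 0.00207, 0.00231 and 0.0022). The count of 29 was 6 when only the compared groups were fitted and 18 without 14 h replicate 3. It was 25 without the libraries numbered 2.

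In the ZAT14 line most estimates lay below 0, and few members passed the test. At 14 h, 3 of 37 members were lower than with DMSO and 0 higher in limma, against 1.43% of all genes lower and 2.85% higher. An unadjusted p under 0.05 was found for 26 members, or 70.3%, against 17.1% of all genes. CYCB2;3 had 17.0, 13.9 and 14.6 FPKM at 14 h, against 19.2, 24.0 and 19.4 FPKM with DMSO (log2 fold change -0.43, SE 0.0998, adjusted p = 0.021). POK2 had 6.75, 6.61 and 6.15 FPKM at 14 h, against 8.46, 8.53 and 8.24 FPKM with DMSO (-0.33, SE 0.079, adjusted p = 0.0255). PLEIADE had 10.7, 9.73 and 9.45 FPKM at 14 h, against 12.5, 14.0 and 12.8 FPKM with DMSO (-0.36, SE 0.096, adjusted p = 0.0421). In these 3 genes the groups did not overlap, and all 3 had also fallen in the ZAT14-like line. CYCA2;1, with 3.42, 4.19 and 4.11 FPKM at 14 h and 2.70, 2.72 and 2.48 FPKM with DMSO, lay higher but did not pass in the fit of all 6 groups (0.43, SE 0.153, adjusted p = 0.139). Over the members the median log2 fold change was -0.26, and 35 of 37 estimates lay below 0, against 47.7% of all genes. Every 14 h library lay below every DMSO library for 28 members, against 12.3% of all genes, and above for 1, against 15.5%. None of the 3 calls held in every alternative. When only the 2 groups were fitted, 13 members were lower and 1 higher, CYCA2;1 (0.43, adjusted p = 0.04). The shares of all genes given above are from the fit of all 6 groups and do not apply to that fit. The count lower was 5 after rescaling each library to its median ratio, 1 without DMSO replicate 1 or 4, and 0 without DMSO replicate 2, 14 h replicate 3 or 14 h replicate 4.

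At 10 h in the ZAT14 line 0 members passed, against 3.21% of all genes, and 0 had an unadjusted p under 0.05, against 14.8%. Between 14 h and 10 h of that line 12 members were lower and 0 higher in limma, against 2.63% and 2.4% of all genes. POK2 had 6.75, 6.61 and 6.15 FPKM at 14 h, against 9.71, 8.96 and 8.17 FPKM at 10 h (log2 fold change -0.40, SE 0.079, adjusted p = 0.00664). CYCA2;4 had 16.6, 16.5 and 17.1 FPKM at 14 h, against 23.2, 24.7 and 22.2 FPKM at 10 h (-0.46, SE 0.092, adjusted p = 0.00791). The groups did not overlap in these genes. CYCB2;3, CDKB2;2, CYCB1;2, PLEIADE, AUR3 and HINKEL fell by 0.51, 0.50, 0.44, 0.40, 0.40 and 0.44 on the log2 scale, with adjusted p from 0.00675 to 0.031. The count was 3 without 10 h replicate 3, 14 h replicate 3 or 14 h replicate 4, and 4 without 10 h replicate 2.

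The difference between the lines' responses at 14 h was tested directly. For all 37 members the ZAT14-like response was the more negative, with differences in log2 fold change of -0.48 to -0.01 and a median of -0.24, while 50.0% of all genes had a difference below 0. None of these passed the test in limma, against 0.361% of all genes. Unadjusted p was under 0.05 for 8 members, or 21.6%, against 6.2% of all genes. The largest difference was that of CYCB2;1, at -0.48 (SE 0.182, adjusted p = 0.668). At 10 h, 0 members differed between the lines' responses, against 0.181% of all genes, and 1 had an unadjusted p under 0.05, against 7.74%. With DMSO alone, 0 members differed between the lines, against 0.0991% of all genes, with 0 at an unadjusted p under 0.05, against 2.31%. For the ZAT14-like against the ZAT14 line with DMSO, 31 of 37 estimates lay below 0, against 50.1% of all genes. The DMSO values enter the difference in response, and their part in it was not tested. Members share their libraries, so their signs are not independent. Across the 37 members, which share their libraries within a line, the 14 h changes of the 2 lines had Pearson's r = 0.824 and Spearman's rho = 0.746, given as a description, since genes are not independent replicates.

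**Figure D3:**
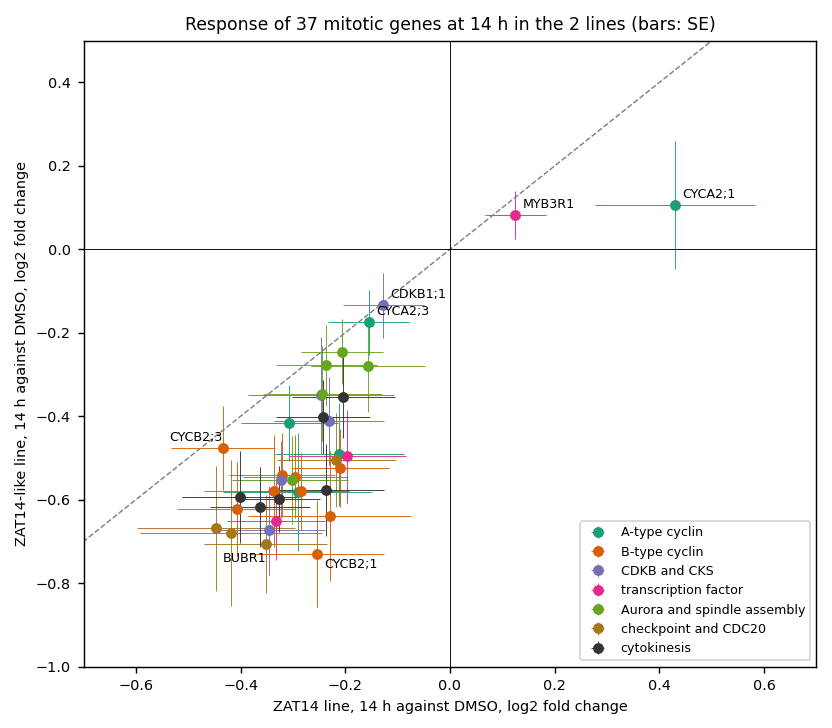
Log2 fold change of FPKM + 1 at 14 h against DMSO in the ZAT14-like line (vertical) and the ZAT14 line (horizontal) for the 37 mitotic genes, coloured by role. Bars are standard errors and the dashed line marks equal changes. All 37 points lie below the dashed line, MYB3R1 and CYCA2;1 lie above 0 on both axes, and the difference passed the test for 0 genes.

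Markers of other tissues moved in the same libraries. Of the 6 xylem markers listed, 4 were tested and all 4 were higher after 14 h of ZAT14-like induction, and their sum over the 6 was 42.2 to 57.3 FPKM at 14 h and 5.52 to 11.7 FPKM with DMSO. In the ZAT14 line that sum was 23.2 to 24.3 FPKM at 14 h and 4.83 to 12.2 FPKM with DMSO, with 3 of 4 higher. At 10 h, when 0 mitotic members had passed, the sum was 22.6 to 25.8 FPKM in the ZAT14-like line, with 2 of 4 higher. In the ZAT14 line the 10 h sum was 11.1 to 17.4 FPKM, which overlapped DMSO, with 1 of 4 higher. Root cap markers summed to 73.1 to 79.7 FPKM at 14 h and 73.1 to 81.4 FPKM with DMSO in the ZAT14-like line, and 0 of 3 passed. Stem cell niche markers summed to 42.1 to 45.2 FPKM at 14 h and 21.2 to 23.7 FPKM with DMSO in that line. Only 1 of these 3 was higher, WOX5 (log2 fold change 3.9), while PLT1 and PLT2 were at 0.025 and -0.069. Companion cell markers in that line summed to 2.36 to 3.64 FPKM at 14 h and 1.115 to 1.89 FPKM with DMSO. Of 3 wound and stress genes, WRKY40 and STZ were higher at 14 h in the ZAT14-like line (log2 fold change 0.59 and 0.69, limma adjusted p = 0.0174 and 0.0266), and WRKY40 in the ZAT14 line (0.72, adjusted p = 0.0119). Of 4 root hair and epidermis markers 3 were tested, and GL2 was higher in the ZAT14-like line (0.44, adjusted p = 0.0133). The part of these shifts in the mitotic changes was not tested.

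Other genes of the division machinery were described from lists by role. After 14 h of ZAT14-like induction, 9 of 15 tested genes of the kinetochore, cohesion and checkpoint list were lower and 0 higher, against 4.49% of all genes lower and 7.89% higher, with a median log2 fold change of -0.35. They included Haspin, a kinase of mitotic histone H3 (-0.57, SE 0.088, limma adjusted p = 0.000407), and BUB3.1, a checkpoint protein (-0.54, SE 0.101, adjusted p = 0.0021). Of 22 genes of spindle, preprophase band and phragmoplast, 10 were lower and 0 higher, with ATK1 and ATK5, minus-end-directed spindle kinesins, at -0.70 and -0.67 (adjusted p = 0.000127 and 0.000705). Of 11 DNA replication genes, 7 were lower and 0 higher, with a median of -0.26, and MCM6, a subunit of the replicative helicase, fell by 0.37 (adjusted p = 0.00713). Of 15 genes of the anaphase-promoting complex and its regulators, 2 were lower and 0 higher, and of 11 other cyclins, CDKA and G2/M control genes, 0 were lower. The single higher gene of that last list was CYCB1;5 (0.81, SE 0.143, adjusted p = 0.00122). The counts lower in the ZAT14 line at 14 h were 1, 2, 0, 0 and 0 in the same order of lists, against 1.43% of all genes.

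The share of members that fell is given by promoter, as a description. After 14 h of ZAT14-like induction, 17 of 20 members with AACGG and 11 of 17 members without it were lower, with median log2 fold changes of -0.56 and -0.42. In the ZAT14 line the 3 members that fell at 14 h, CYCB2;3, POK2 and PLEIADE, were all among the 20 with AACGG, and the medians were -0.27 and -0.25. CDKB1;1 and MYB3R1, shown above without a copy, did not pass the test, yet BUBR1, also without one in this window, had the lowest log2 fold change of the members without AACGG, -0.71.

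In the pear sextuple mutant the mitotic genes moved in both directions. Of 37 members, 10 were higher and 6 lower than in Col-0 in limma, against 44.6% and 18.6% of 17062 genes tested. The median log2 fold change of all genes was 0.21 and that of the members 0.01. After each library was rescaled to its median ratio, 5 members were higher and 14 lower, against 28.9% and 29.6% of all genes, or 58.6% in either direction, so a change near 0.21 has no fixed direction here. Every mutant library lay above every Col-0 library for 11 members and below for 7, against 48.3% and 20.6% of all genes. In all, 8 members kept their call and direction in all 10 alternatives: CDKB1;2, MAD2 and SCL28 were lower and CYCA2;1, CYCB2;1, CYCA2;4, AUR3 and CYCB2;3 higher. The share of all genes that did so is not given here, so this count has no background to be read against.

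CYCA2;1 had the largest rise, with 11.9, 11.9 and 10.6 FPKM in pear sextuple libraries, against 2.63, 1.81 and 3.44 FPKM in Col-0 (log2 fold change 1.802, SE 0.159, limma adjusted p = 4.02e-05, and 1.62 after rescaling). CYCB2;1 had 14.7, 14.7 and 14.5 FPKM in pear sextuple, against 6.45, 6.45 and 7.39 FPKM in Col-0 (1.01, SE 0.082, adjusted p = 2.6e-05, and 0.81 after rescaling). In both cyclins the mutant libraries lay well above all Col-0 libraries. CYCA2;4 had 39.1, 40.6 and 42.2 FPKM in pear sextuple, against 24.0, 20.7 and 29.7 FPKM in Col-0 (0.70, SE 0.120, adjusted p = 0.00115, and 0.49 after rescaling). CYCB2;3 had 35.4, 36.9 and 35.4 FPKM in pear sextuple, against 21.4, 23.2 and 27.1 FPKM in Col-0 (0.57, SE 0.091, adjusted p = 0.000807, and 0.36 after rescaling). AUR3, an Aurora kinase that phosphorylates histone H3, had 19.5, 17.9 and 16.7 FPKM in pear sextuple, against 9.80, 9.48 and 13.2 FPKM in Col-0 (0.70, SE 0.125, adjusted p = 0.00151, and 0.49 after rescaling). All of these groups were separate. CYCB2;2 had 17.2, 16.3 and 17.3 FPKM in pear sextuple, against 11.1, 12.2 and 14.0 FPKM in Col-0 (0.42, SE 0.093, adjusted p = 0.00458), and after rescaling it was at 0.21 and did not pass (adjusted p = 0.0938).

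CDKB1;2 had the largest fall, with 5.94, 5.64 and 5.69 FPKM in pear sextuple, against 18.2, 19.5 and 20.9 FPKM in Col-0 (log2 fold change -1.60, SE 0.081, limma adjusted p = 3.61e-06, and -1.81 after rescaling). MAD2 had 21.7, 23.9 and 23.4 FPKM in pear sextuple, against 50.1, 54.1 and 64.7 FPKM in Col-0 (-1.25, SE 0.1001, adjusted p = 2.57e-05, and -1.47 after rescaling). In both genes the groups lay far apart. CDKB1;1, with 29.2, 27.4 and 29.6 FPKM in pear sextuple and 36.5, 30.9 and 40.4 FPKM in Col-0, fell by 0.30 (adjusted p = 0.027). The checkpoint partner BUBR1 was at -0.26 (adjusted p = 0.0782), and after rescaling it was called lower, at -0.47 (adjusted p = 0.00964). AUR2, CDC20.1, CYCB1;1, CYCB3;1, EDE1, MYB3R4 and PLEIADE were also called lower after rescaling but not before it, at -0.46 to -0.26. SCL28 had 18.9, 15.8 and 19.2 FPKM in pear sextuple, against 22.8, 22.6 and 26.4 FPKM in Col-0 (-0.40, SE 0.0999, adjusted p = 0.00847, and -0.61 after rescaling). HINKEL and POK1 were lower by less, at -0.22 and -0.23 (adjusted p = 0.0418 and 0.05, which for POK1 is under the threshold before rounding), and were at -0.44 and -0.42 after rescaling. The remaining 4 members called higher, CDKB2;1, MYB3R1, CKS2 and CYCB2;4, lay between 0.22 and 0.35 and did not pass after rescaling.

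**Figure D4:**
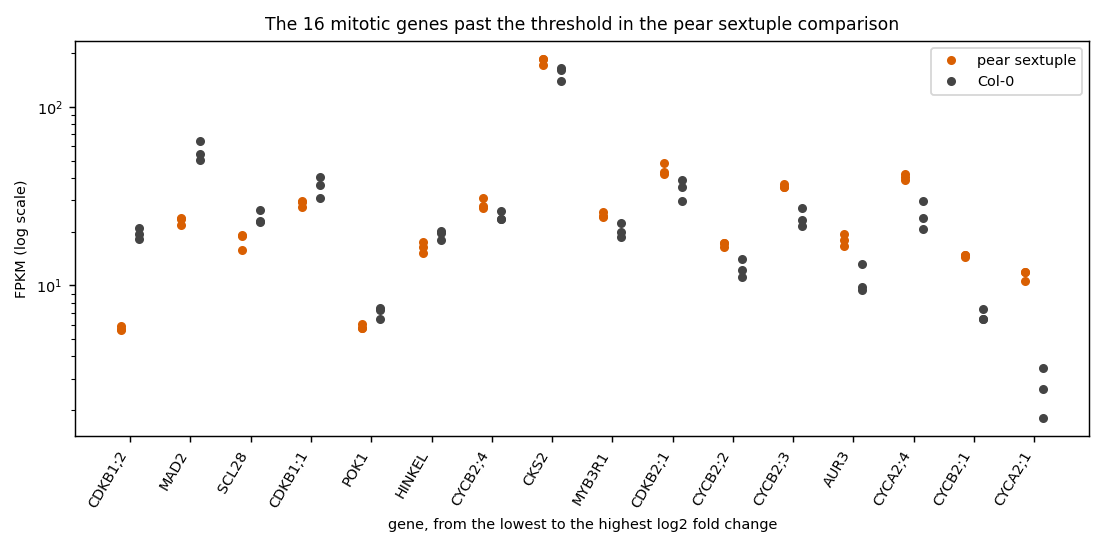
FPKM on a log axis of the 16 mitotic genes past the threshold in the mutant comparison, ordered by log2 fold change, in each pear sextuple library (orange, left) and each Col-0 library (grey, right). CDKB1;2 and MAD2 are lower, and CYCB2;1 and CYCA2;1 higher, in the mutant by a wider margin than the other 12.

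Several marker lists were higher in the same mutant libraries. Root cap markers summed to 179 to 204 FPKM in pear sextuple and 72.4 to 86.8 FPKM in Col-0, and stem cell niche markers to 79.8 to 90.9 FPKM and 30.7 to 40.3 FPKM, with 3 of 3 called higher in each list. Endodermis markers summed to 12.9 to 21.3 FPKM in pear sextuple and 3.53 to 4.44 FPKM in Col-0. Sieve element markers summed to 10.1 to 10.8 FPKM in pear sextuple, where NAC045 and SEOa were at 0, and 11.7 to 15.3 FPKM in Col-0. Of the 5 tested, 3 were lower and 1 higher. APL, NAC086 and AT4G39810 were at log2 fold changes of -0.941, -1.472 and -1.385, and CVP2 was at 1.109. The part of these markers in the mitotic changes was not tested. Of the wider cell cycle lists, 5 of 11 other cyclin and G2/M genes were higher and 0 lower, a share higher that is near the 44.6% of all genes. They included the repressor MYB3R-3 (log2 fold change 0.43, limma adjusted p = 0.0016). After rescaling, 3 were higher and 1 lower, against 28.9% and 29.6% of all genes. The replication clamps PCNA1 and PCNA2 were at -0.75 and -1.05 (adjusted p = 3.64e-05 and 9.85e-06), and were the 2 of 11 DNA replication genes called, a share near the 18.6% of all genes lower. After rescaling, 4 of 11 were lower, against 29.6%. Rescaled values put 13 of 22 spindle, preprophase band and phragmoplast genes lower and 2 higher, beside 3 and 4 without that step. Of 15 kinetochore, cohesion and checkpoint genes, they put 7 lower and 0 higher, beside 2 and 3. Both lower shares exceeded the 29.6% of all genes. For 15 genes of the anaphase-promoting complex list the counts were 5 lower and 3 higher, beside 2 and 5.

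In sorted sieve element cells no member passed the test between estradiol and DMSO. Of 37 members 0 were called in edgeR, against 0.657% of 24673 genes tested. At an unadjusted p under 0.05 there were 10 members, or 27.0%, against 20.8% of all genes. DESeq2 called 4, against 12.1% of all genes: CYCA2;2, CYCB2;3 and CDKB1;1 higher, with log2 fold changes of 2.31, 1.64 and 1.43, and CYCB1;3 lower, at -1.62 (adjusted p = 0.00466, 0.000847, 0.0297 and 0.0271). The members' median log2 fold change was 0.82 in edgeR and that of all genes 0.09. The estradiol cells were sorted for RFP and YFP and the DMSO cells for RFP, so the gate and the treatment cannot be told apart.

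On the scale of CPM per kilobase of exon, CYCB2;3 had 8.65, 5.83 and 4.88 in estradiol libraries, against 2.27, 1.74 and 2.34 in DMSO libraries (log2 fold change of counts 1.61, SE 0.353, edgeR adjusted p = 0.0676). CYCA2;2 had 1.25, 5.34 and 2.77 in estradiol libraries, against 0.747, 0.763 and 0.456 in DMSO libraries (2.25, SE 0.648, adjusted p = 0.108). CDKB1;1 had 9.58, 13.4 and 11.3 in estradiol libraries, against 7.10, 2.35 and 3.601 in DMSO libraries (1.39, SE 0.433, adjusted p = 0.127). In these 3 genes every estradiol library lay above every DMSO library, which was so for 11 of 37 members and for 16.2% of all genes with a count. CYCB1;3 had 6.34, 1.97 and 3.07 in estradiol libraries and 8.10, 10.99 and 16.5 in DMSO libraries, with no overlap (-1.64, SE 0.482, adjusted p = 0.111).

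MYB3R1 was the highest member in these cells, with 24.1, 20.6 and 28.1 CPM per kilobase in estradiol libraries and 31.9, 45.1 and 53.9 in DMSO libraries (log2 fold change -0.85, SE 0.273, edgeR adjusted p = 0.133). With DMSO, PAKRP1, at 12.8 CPM per kilobase on average, ranked second, and CYCA2;1, at 0.2, ranked last. CKS2, the highest member in meristems, averaged 8.69 CPM per kilobase with DMSO. Several members were uneven between libraries: KNOLLE had 569, 65 and 175 counts in estradiol libraries and 176, 23 and 0 in DMSO libraries, and HINKEL had 557, 159 and 234 counts with estradiol and 181, 0 and 6 with DMSO. In both, estradiol replicate 1 and DMSO replicate 1 were the highest of their groups. SCL28 and CYCA2;1 were each at 0 counts in 1 DMSO library.

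**Figure D5:**
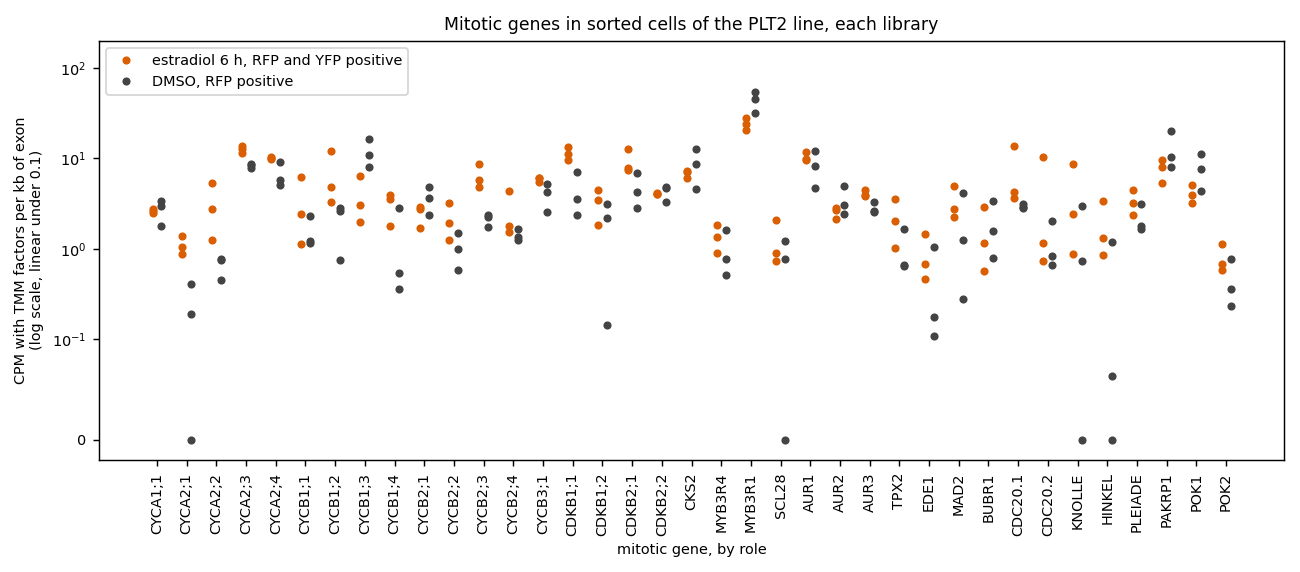
Level of the 37 mitotic genes in each sorted-cell library of the PLT2 line, as CPM with TMM factors per kilobase of exon on a log axis that is linear under 0.1, for estradiol libraries (orange, left) and DMSO libraries (grey, right). MYB3R1 lies above the other members in both groups, and KNOLLE, HINKEL, SCL28 and CYCA2;1 reach 0 in 1 DMSO library each.

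Sieve element markers summed to 3228 to 6827 CPM in estradiol libraries and 7800 to 16050 CPM in DMSO libraries, with 0 of 8 higher and 1 lower in edgeR. Companion cell markers summed to 207 to 375 CPM with estradiol and 696 to 1511 CPM with DMSO, but the 2 genes of that list lay on opposite sides and neither passed edgeR, with SUC2 at 1.34 and HA3 at -1.95 (adjusted p = 0.356 and 0.0637). Root cap markers summed to 17.8 to 84.2 CPM with estradiol and 12.3 to 96.5 CPM with DMSO. Of the wider lists, 1 of 11 DNA replication genes was higher in edgeR, MCM5, a helicase subunit (log2 fold change 2.11, SE 0.335, adjusted p = 0.048), and 0 genes of the other 4 cell cycle lists were called. Over all genes, edgeR called 1833 without DMSO replicate 1 and 0 to 6 without any other 1 library, beside 162 with all 6. The part of these markers in the members' values was not tested.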

How the data were processed

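Expression was measured by RNA-seq in 30 libraries. The deposited FPKM values of the mutant and induction sets were made by the authors with TopHat2, HTSeq and TAIR10, and the deposited raw counts of the sorted cells with Bowtie2, featureCounts and TAIR10, per the submitters' processing notes; roles, versions and filters are not given in the sources used here. FPKM reads lower where abundant genes hold more of a library, and counts from amplified cDNA are not independent molecules. Groups came from the sample labels.

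FPKM was tested with limma 3.58.1 in R 4.3.3 on log2(FPKM + 1), trend on, keeping genes that reached 1 FPKM in 3 or more libraries. The mutant set was fitted alone and the 18 induction libraries as 6 group means. Counts were tested with edgeR 4.0.16 (TMM, filterByExpr, quasi-likelihood), with DESeq2 1.42.0 as an alternative. edgeR gives no SE here. The SE printed with its values is the absolute log2 fold change divided by the square root of the F statistic. That fold change is drawn towards 0 by edgeR's prior count, so the SE is approximate. Tests were two-sided with Benjamini-Hochberg adjustment over all genes tested. Low FPKM values were whole reads within 0.05 for 43.7% to 46.9% of those examined in the mutant set and 85.4% to 87.7% in the induction set, so depths are estimates. The steps were tested on simulated data. Promoters, starts and exons came from TAIR10.1, names from known locus codes; the files hold no coordinates.

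Members, lists, markers and rules were chosen with earlier results of these data known. Values per library are given for at most 8 called members per comparison, by adjusted p, and for members opposite to most called; for the sorted cells, and for a few members that did not pass, they were named after their values were seen. List genes AT4G39630 and AT1G50230 were dropped, as the annotation contradicts or lacks them.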

Additional observations from a re-analysis of the deposited data

Results flagged for a closer look

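By the limma test that set 14 h directly against 10 h, the response differed for 29 of 37 members in the ZAT14-like line. In the ZAT14 line it differed for 12 of 37. All of these were lower, against 4.93% and 2.63% of all genes called lower. Without 1 library the counts were 18 to 31 and 3 to 12. In all 12 alternatives, 6 of the 29 and 3 of the 12 kept their call. The members with the lowest adjusted p are given here, at most 8 per line. In the ZAT14-like line the log2 differences were -0.83 for CYCA1;1, -0.69 for MAD2, -0.68 for CYCB2;3, -0.63 for PLEIADE, -0.62 for CYCB1;2, -0.62 for CDKB2;2, -0.55 for SCL28 and -0.46 for POK2. In the ZAT14 line they were -0.51 for CYCB2;3, -0.50 for CDKB2;2, -0.46 for CYCA2;4, -0.44 for CYCB1;2, -0.44 for HINKEL, and -0.40 for each of POK2, PLEIADE and AUR3. In all 12 alternatives, CYCA1;1, CYCB2;3, PLEIADE, CYCB1;2 and CDKB2;2 of those named kept their call in the ZAT14-like line, and CYCB2;3, CYCA2;4 and POK2 in the ZAT14 line. Each 14 h library lay below each 10 h library of its line for these genes. The DMSO libraries of each line, whose labels give no time, serve both times and drop out of these differences.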

How the results depend on the processing

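Each comparison was repeated with a pseudocount of 0.1, without the filter on low values, after median-ratio rescaling, with the compared groups only (induction set), without each library, and with the replicate number as a block; the 3 induction libraries numbered 2 were left out as an alternative chosen after seeing the data. For ZAT14-like at 14 h the 28 lower members were 28 after rescaling and 26 with the replicate block, 19 to 30 without 1 library, and 17 without the libraries numbered 2; 16 of the 28 were called in all 12 alternatives. For ZAT14-like at 10 h the count was 1, AUR2, with the replicate block and without the libraries numbered 2, and 0 to 1 without 1 library. For ZAT14 at 14 h it was 5 after rescaling, 1 with the replicate block, 14 with the compared groups only (13 lower, and CYCA2;1 higher), 0 without the libraries numbered 2, and 0 to 2 without 1 library. For 14 h against 10 h it was 6 with the compared groups only and 18 to 31 without 1 library in the ZAT14-like line, and 4 without the libraries numbered 2 and 3 to 12 without 1 library in the ZAT14 line. For PLT2 it was 4 with DESeq2, 1 with the replicate block, and 0 to 1 without 1 library, the 1 being CDKB1;1 without DMSO replicate 1 and CYCB2;3 with the block. For pear sextuple it was 11 with the replicate block and 11 to 18 without 1 library. None of the called members followed singly, 12 in the mutant and 3 to 8 in other comparisons with calls, turned its direction. Of the members not called in the mutant, AUR1, CDC20.2, CYCA1;1, CYCA2;2, CYCA2;3, CYCB1;4, PAKRP1 and TPX2 lay above 0 and turned to values between -0.21 and -0.01 after rescaling. The cause of the moves was not tested. In the induction set, the shares of all genes given with the counts are from the fit of 6 groups, not from these alternatives. No share of all genes is given for calls kept in every alternative.

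Replicate numbers do not establish pairs: same-numbered libraries of the induction set deviated together with r from -0.16 to 0.50. Differently numbered libraries had r from -0.50 to 0.46, and the 3 pairs among libraries numbered 2 had 0.42 to 0.48. Both DMSO groups hold a library numbered 2 and neither 14 h group does. Anything these libraries may share thus cannot be told apart from the comparison of 14 h with DMSO. Its counts in the ZAT14-like and ZAT14 lines were 17 and 0 without them, and 19 to 30 and 0 to 2 without 1 library. Whether a shared effect or the loss of a DMSO library lay behind these counts was not tested. The mutant and the sorted sets share only 2 numbers each. In the ZAT14 line a change of about 0.3 on the log2 scale lay near the threshold, so a miss there does not show that a member was unaffected.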
